A study of Mus musculus with 24 samples.

Results

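The genes described are 5 members of the renin-angiotensin system, Ren1, Agt, Ace, Agtr1a and Atp6ap2. They were picked by name from the deposited count table, which holds 55416 gene identifiers, and all 5 were found and passed the filter on low counts. Their levels are given as CPM (the counts of a gene per 1000000 counts of the library, with library sizes scaled by TMM factors) in each of the 24 libraries of the series.

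The renin-angiotensin system raises blood pressure and retains salt through a chain of cleavage steps. Angiotensinogen, the product of Agt, is cut by the protease renin (Ren1) to angiotensin I, and angiotensin-converting enzyme (Ace) turns that peptide into angiotensin II, which acts mainly through the type 1 receptor (in rodents mostly the Agtr1a product). In the kidney, renin is best known from juxtaglomerular cells of the cortex, but in rodents it is also made by collecting duct cells, and angiotensinogen is made by the proximal tubule. Atp6ap2 encodes the prorenin receptor, which binds renin and prorenin and is also an accessory protein of the vacuolar proton pump (V-ATPase).

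Poly(A) RNA came from the kidney inner medulla, the innermost zone of the kidney, of C57BL/6 mice injected at 9 to 10 weeks of age. The mice received 1 intraperitoneal injection of 100 µl, and tissue was taken 72 h later. The 4 groups were females given 15 mg/kg cisplatin (5 libraries), females given saline (7), males given cisplatin at the same dose (6) and males given saline (6). Cisplatin is a platinum drug against tumours that injures the kidney, and the groups allow its effect to be read in each sex and the sexes to be compared under each injection. The labels do not state that a library is 1 mouse, so p-values measure the spread between libraries.

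Libraries held 18084242 to 27279102 counts. The tissue label was checked against cell type markers: the summed CPM of 8 principal cell markers lay between 5130 and 11200 in every library, and Aqp2, the vasopressin-regulated water channel of collecting duct principal cells, averaged 5830 ± 1150 CPM in female cisplatin, 6440 ± 1620 in female saline, 6720 ± 1700 in male cisplatin and 6560 ± 770 in male saline libraries (SD). Nphs1, which encodes a protein of the glomerular filter, reached at most 0.419 CPM in any library. The list of 5 podocyte markers it belongs to summed to 94.3 to 190 CPM, most of it from Podxl, which averaged 121 ± 8.96 CPM in female cisplatin, 139 ± 17.0 in female saline, 101 ± 26.1 in male cisplatin and 135 ± 8.44 in male saline libraries. Segments that lie outside the inner medulla left markers at uneven levels, with summed CPM of 57.3 to 1090 over 16 proximal tubule genes and 937 to 13900 over 6 thick ascending limb genes. Male cisplatin replicate 5 and female saline replicates 1 and 6 had stood apart in composition in an earlier analysis of these data. Values without these 3 libraries are given where they bear on a call. By a tubule marker score (the mean log2 CPM of both lists) the 3 libraries stood at 4.88, 4.22 and 3.19. Male cisplatin libraries ranged from 2.67 to 5.27 and female saline libraries from 3.19 to 4.86. This score thus set apart at most female saline replicate 6.

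Ren1 (ENSMUSG00000070645) lies on the plus strand at chr1:133350510-133360325, Agt (ENSMUSG00000031980) on the minus strand at chr8:124556534-124569706, and Ace (ENSMUSG00000020681) on the plus strand at chr11:105967945-105989964. Agtr1a (ENSMUSG00000049115) lies on the plus strand at chr13:30336441-30382867 and Atp6ap2 (ENSMUSG00000031007) on the plus strand at chrX:12587801-12617049 (GENCODE M21, GRCm38). C57BL/6 mice lack the duplicated renin gene Ren2 that some other strains carry. Agtr1b, the near-identical paralog of Agtr1a, held 30 counts over all 24 libraries and at most 5 in any of them, so little signal of the receptor pair was assigned to it. The antisense gene Gm11651, which overlaps Ace, held 8 counts in all. Gm48161, annotated within an intron of Agtr1a on the same strand, held 349 counts, against 873 for Agtr1a.

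The promoters of 3 of the genes are shown because they belong to the genes with the most and the least variable levels (Ren1 and Atp6ap2) and to the precursor of the pathway's peptides (Agt). Each is the RefSeq window (GRCm38.p6) of 300 bases, 250 before and 50 after the transcript start, written 5′ to 3′ on the gene's strand, for Ren1 chr1:133350424-133350723, for Agt chr8:124569657-124569956 (minus strand) and for Atp6ap2 chrX:12587509-12587808. Capitals mark the letters TATAAA.
Ren1: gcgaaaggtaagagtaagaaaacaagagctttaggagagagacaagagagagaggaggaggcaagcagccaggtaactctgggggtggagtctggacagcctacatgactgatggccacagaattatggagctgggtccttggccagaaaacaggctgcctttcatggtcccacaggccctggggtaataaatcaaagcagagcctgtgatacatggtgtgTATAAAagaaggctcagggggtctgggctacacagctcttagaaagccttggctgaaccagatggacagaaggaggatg
Agt: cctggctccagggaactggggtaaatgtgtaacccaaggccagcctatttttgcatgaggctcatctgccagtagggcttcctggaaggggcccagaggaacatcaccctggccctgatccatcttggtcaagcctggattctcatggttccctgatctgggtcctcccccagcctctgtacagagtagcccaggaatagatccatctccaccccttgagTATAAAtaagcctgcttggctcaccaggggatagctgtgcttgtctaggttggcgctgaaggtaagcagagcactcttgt
Atp6ap2: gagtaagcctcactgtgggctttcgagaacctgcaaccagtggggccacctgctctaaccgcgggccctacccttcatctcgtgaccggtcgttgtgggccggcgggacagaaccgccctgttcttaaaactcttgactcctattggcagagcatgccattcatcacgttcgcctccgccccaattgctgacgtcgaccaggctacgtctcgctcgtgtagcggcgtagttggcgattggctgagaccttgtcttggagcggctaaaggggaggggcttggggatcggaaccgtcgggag
The RefSeq start of Ren1 lies downstream of the start in GENCODE M21. TATAAA stood at position -29 from the transcript start in Ren1 and at -30 in Agt. It was absent from the Atp6ap2 window on both strands, as from most promoters: 13.6% of 32851 RefSeq promoter windows of the same length held TATAAA on either strand. The Ren1 and Agt windows each held 1 CpG dinucleotide and the Atp6ap2 window 24, against a median of 7 over all promoters. The GC share was 51.3% in Ren1, 54.7% in Agt and 60.3% in Atp6ap2, against a median of 52.7%. The letters CCAAT occurred 3 times in Atp6ap2, counting both strands, and not in Ren1 or Agt, and 37.4% of all promoters held them. Ace has 2 windows in the table. The upstream one (chr11:105967698-105967997) had 29 CpG dinucleotides and a GC share of 69.7%. It held TATAAA on the opposite strand at position -31. The downstream one (chr11:105974939-105975238) had 2 CpG dinucleotides, a GC share of 59.0% and no TATAAA. No window was listed for Agtr1a.

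Set beside each other per kilobase of exon, the level of Atp6ap2 was first among the 5 genes in 24 of 24 libraries, at 51.2 ± 4.65 CPM per kb (SD over all libraries). Agt followed at 3.44 ± 2.32, Ace at 2.60 ± 1.25, Ren1 at 1.33 ± 1.30 and Agtr1a at 0.576 ± 0.305 CPM per kb. Agt and Ace did not differ beyond their spread, and their places changed between libraries: Agt was second in 12 and Ace in 8. Ren1 was second in the remaining 4 libraries and last in 6, and Agtr1a was last in the other 18. The highest library exceeded the lowest 34.7-fold for Ren1, 17.0-fold for Agtr1a, 11.8-fold for Agt, 4.58-fold for Ace and 1.35-fold for Atp6ap2. The counts behind these levels were low for Ren1 (7 to 250 per library) and Agtr1a (5 to 93), intermediate for Agt (44 to 421) and Ace (150 to 679) and high for Atp6ap2 (2195 to 3869), so a level of Ren1 in a male library rests on 7 to 41 counts.

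**Figure D1:**
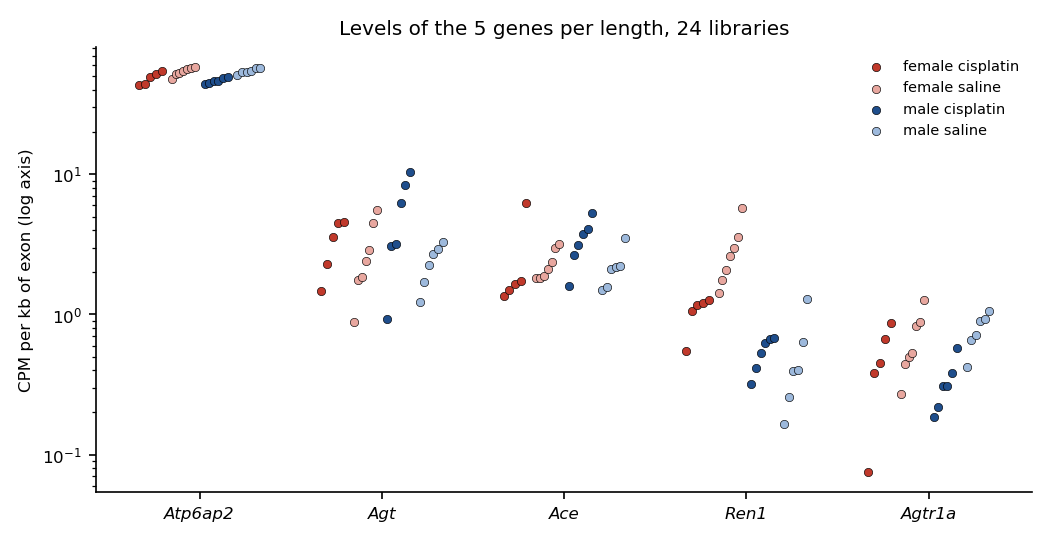
Level of each of the 5 genes in CPM per kb of exon on a log axis, with 1 point for each of the 24 libraries, sorted within its group and coloured by group. Atp6ap2 lies between 43.0 and 58.2 in every library, while Ren1 spans 0.166 to 5.75 and is highest in female saline libraries.

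Ren1 was the member that separated the sexes. By group mean it was highest in females given saline, next in females given cisplatin, and lowest in males, whichever injection they had received. In female cisplatin libraries Ren1 was measured at 0.906, 2.00, 1.95, 1.75 and 2.09 CPM, against 2.34 (lowest), 4.33 (median) and 9.53 (highest) in the 7 female saline libraries. Every female cisplatin library lay below every female saline library. How many of all genes tested separate groups in this way was not counted, for this or any later comparison of ranges. In male cisplatin libraries it had a lowest value of 0.525, a median of 0.954 and a highest value of 1.12 CPM, and in male saline libraries 0.275, 0.66 and 2.15 CPM. The male groups overlapped fully, and the highest male saline library (replicate 6) was still below the lowest female saline one. Group means were 1.74 ± 0.482 CPM in female cisplatin (SD, n = 5), 4.78 ± 2.42 in female saline (n = 7), 0.892 ± 0.241 in male cisplatin (n = 6) and 0.87 ± 0.679 in male saline libraries (n = 6).

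Under saline, Ren1 was 5.55-fold higher in females than in males, or 2.47 ± 0.38 (SE) as a log2 fold change (adjusted p = 0.00176), in edgeR's quasi-likelihood test with Benjamini-Hochberg adjustment over 18005 genes. All 7 female saline libraries exceeded all 6 male saline libraries. Of all genes tested, 0.189% were called in this comparison and 0.0611% were called higher in females. Ren1 was the only one of the 5 genes called. The 11 genes called higher in females included 4 on the X chromosome, among them Xist, and 7 elsewhere in the genome. Smaller adjusted p-values than that of Ren1 belonged to Xist (the RNA that silences an X chromosome), Ugt1a2, Slc7a12 and 9030619P08Rik of these 11. The call was kept in 20 of 20 alternative analyses, with log2 fold changes of 2.21 to 2.95 and adjusted p-values of 2.22e-08 to 0.0193. Without the 3 libraries of divergent composition it was 2.48 (adjusted p = 0.00796).

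No other member passed between the sexes under saline. Agt differed by 0.27 ± 0.43, Ace by 0.08 ± 0.31, Agtr1a by -0.21 ± 0.38 and Atp6ap2 by 0.00 ± 0.07 on the log2 scale (female over male), each with an edgeR adjusted p of 1.0. Of the 12 markers of juxtaglomerular and mural cells (smooth muscle and pericytes), 11 could be tested between the sexes under saline. In edgeR 0 of these were called in either direction, where 0.189% of all genes were called. The summed CPM of the 12 markers lay between 170 and 247 in female saline and between 188 and 214 in male saline libraries. Akr1b7, a marker of renin-producing cells in mice, averaged 0.722 ± 0.295 CPM in female saline and 0.394 ± 0.128 CPM in male saline libraries, and its log2 fold change was 0.88 (adjusted p = 1.0). Of all genes tested between the sexes under saline, 0.0611% were called higher in females and 0.128% lower. Of 16 proximal tubule markers, 0 were called higher and 2 lower in females under saline. These were Slc7a13, a transporter of the late proximal tubule (-4.66 ± 0.73, adjusted p = 0.00197), and Cyp2e1, a cytochrome (-3.63 ± 0.60, adjusted p = 0.00315), and their part in the level of Ren1 was not tested.

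**Figure D2:**
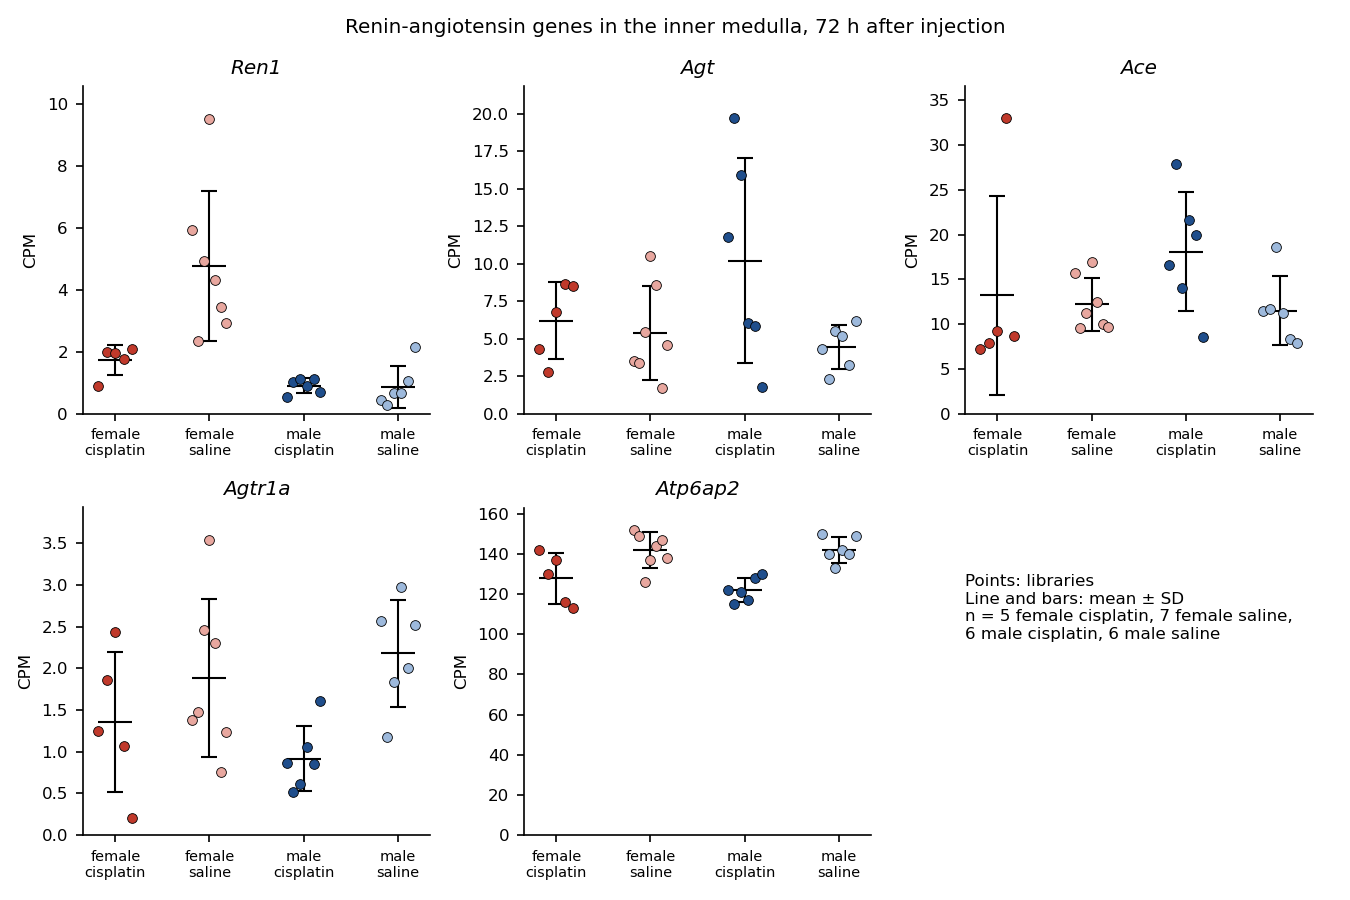
CPM of each gene (linear axis from 0) in every library, by group, with points for libraries and a line and bars for the mean ± SD. Ren1 in female saline lies at 2.34 to 9.53 CPM, above every library of female cisplatin (at most 2.09), male cisplatin (at most 1.12) and male saline (at most 2.15), and Atp6ap2 in male cisplatin (115 to 130) lies below male saline (133 to 150).

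After cisplatin, the level of Ren1 in females was a log2 fold change of -1.46 ± 0.39 relative to saline. The unadjusted p was 0.000876 and the adjusted p 0.112 in edgeR, so the difference did not pass over all genes, although the libraries did not overlap. DESeq2 gave an adjusted p of 0.0159 for it. Among all genes, edgeR called 0.272% in females, and 0.0722% were called lower. Of the 5 members it called 0, with 2 members (Ren1 and Atp6ap2) and 2664 genes at an unadjusted p under 0.05. DESeq2 called 1 member, and it called 233 of all genes in females. In males the log2 fold change of Ren1 was 0.05 ± 0.40 (adjusted p = 0.947).

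The sexes' responses of Ren1 were compared directly. The cisplatin effect in females minus that in males was -1.51 ± 0.55 on the log2 scale, with an unadjusted p of 0.012 and an adjusted p of 0.943 in edgeR, and no gene of the 18005 passed this test (0%). Unadjusted, 772 genes and 1 member were below 0.05, and DESeq2 called 0 members. Under cisplatin, Ren1 was 0.97 ± 0.41 higher in females than in males on the log2 scale, with 4 of 5 female libraries above every male one, but the adjusted p was 0.466. Of all genes 0.156% were called between the sexes under cisplatin, and of the members 0, with 1 at an unadjusted p under 0.05 and 0 called by DESeq2.

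Markers that could move with Ren1 were measured in the same libraries. The summed CPM of the juxtaglomerular and mural markers was 160 to 207 in female cisplatin and 170 to 247 in female saline libraries. Of the 11 tested, 0 were called in females, where 0.272% of all genes were called. Akr1b7 averaged 0.524 ± 0.162 CPM in female cisplatin and 0.722 ± 0.295 CPM in female saline libraries (log2 fold change -0.46 ± 0.42, adjusted p = 0.624). In males, Akr1b7 averaged 0.993 ± 0.835 CPM under cisplatin (0.365 to 2.57) and 0.394 ± 0.128 CPM under saline (0.235 to 0.529). It was called higher (1.32 ± 0.42, adjusted p = 0.0291), but its levels were low, its ranges overlapped and no alternative analysis is given. Acta2, Tagln and Pdgfrb of the same list were called lower in males. Of 8 principal cell markers, from the collecting duct, 0 were called in females after cisplatin, with a median log2 fold change of -0.06. In males 1 of these 8 was called higher and 2 lower, where 20.7% of all genes were called. The part of all these markers in the level of Ren1 was not tested. In whole tissue, fewer cells of a type and less RNA per cell cannot be told apart.

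Agt, the substrate of renin, had its highest levels in males given cisplatin and its widest spread there. In female cisplatin libraries it was measured at 4.32, 2.80, 6.75, 8.61 and 8.53 CPM, against 1.67 (lowest), 4.54 (median) and 10.5 (highest) in female saline libraries. These ranges overlapped throughout. In male cisplatin libraries the lowest, median and highest values were 1.75, 8.93 and 19.7 CPM, and in male saline libraries 2.31, 4.72 and 6.19 CPM. Replicates 1, 2 and 3 of male cisplatin (11.8, 19.7 and 15.9 CPM) lay above all male saline libraries, replicates 4 and 5 (6.03 and 5.82) within them and replicate 6 (1.75) below them.

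The log2 fold change of Agt was 1.19 ± 0.45 in males (adjusted p = 0.0619 in edgeR), short of the threshold, and 0.21 ± 0.45 in females (adjusted p = 0.853). It passed in males in only 4 of 19 alternative analyses. Leaving out replicate 6 (1.41, adjusted p = 0.0118) or replicate 4 of cisplatin (1.30, adjusted p = 0.048) gave a call. So did leaving out the 3 divergent libraries (1.31, adjusted p = 0.047) and DESeq2 (1.19, adjusted p = 0.036). Among the alternatives that did not call it, adjusted p reached 0.176. As a difference of mean log2 CPM it was 0.88 in males (exact permutation test, unadjusted p = 0.143). The difference between the sexes' effects was -0.98 ± 0.64 (adjusted p = 0.943). Proximal tubule markers, from the segment making angiotensinogen, summed to 57.3 to 1090 CPM in male cisplatin and 172 to 1030 in male saline libraries. The largest of them, Kap, was at 20.6 to 775 CPM in male cisplatin and 81.9 to 571 CPM in male saline libraries. Of the 16 markers 0 were called in males, where 20.7% of all genes were called. Their median log2 fold change was -0.50, and their part in the level of Agt was not tested. With a tubule marker score (the mean log2 CPM of the proximal tubule and thick ascending limb lists) in the model, Agt in males was 1.10 ± 0.54 (adjusted p = 0.166).

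Ace, the converting enzyme, is bound to the surface of endothelium and proximal tubule cells. It was measured at 7.21, 7.90, 9.23, 33.0 and 8.66 CPM in female cisplatin libraries, against 9.59 (lowest), 11.2 (median) and 16.9 (highest) in female saline libraries. Of the female cisplatin libraries, 4 of 5 therefore lay below every female saline library and replicate 4 alone lay above them all. In male cisplatin libraries the lowest, median and highest values were 8.50, 18.3 and 27.9 CPM, and in male saline libraries 7.87, 11.3 and 18.6 CPM, with 3 of 6 cisplatin libraries above every saline one.

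No comparison of Ace passed with all libraries in the fit. The log2 fold change was 0.65 ± 0.33 in males (adjusted p = 0.153) and 0.11 ± 0.33 in females (adjusted p = 0.897) in edgeR. The female value turned on 1 library: without female cisplatin replicate 4 it was -0.57 (adjusted p = 0.704). Between the sexes under cisplatin, Ace was -0.46 ± 0.34 with all libraries (adjusted p = 0.658) and -1.13 without that library (adjusted p = 0.0488). Endothelial markers, 11 in number, summed to 2040 to 2890 CPM in female cisplatin and 2290 to 3410 CPM in female saline libraries, and to 1050 to 3150 CPM in male cisplatin and 2640 to 3090 CPM in male saline libraries.

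Agtr1a, the receptor gene, was lower in males given cisplatin. In male cisplatin libraries its lowest, median and highest levels were 0.514, 0.856 and 1.61 CPM, against 1.18, 2.26 and 2.97 CPM in male saline libraries. All male cisplatin libraries except replicate 6 lay below every male saline library. In female cisplatin libraries it was measured at 1.25, 1.86, 2.43, 1.07 and 0.209 CPM, and in female saline libraries the lowest, median and highest levels were 0.759, 1.48 and 3.54 CPM. The female groups overlapped, with replicate 5 of cisplatin alone below the saline range.

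In males the log2 fold change of Agtr1a was -1.22 ± 0.41 (adjusted p = 0.0366 in edgeR). Of the 5 members, 2 were called in males, Agtr1a and Atp6ap2, both lower, where 20.7% of all genes were called and 7.54% were called lower. The Agtr1a call held by a narrow margin and was kept in only 8 of 19 alternative analyses. It was lost when male cisplatin replicate 1, 2, 3 or 5 or male saline replicate 1, 4, 5 or 6 was left out (log2 fold changes of -1.25 to -1.10, adjusted p of 0.0524 to 0.082), without the 3 divergent libraries (-1.20, adjusted p = 0.0546) and with the tubule marker score in the model (-0.71 ± 0.41, adjusted p = 0.241). In females the log2 fold change was -0.47 ± 0.41 (adjusted p = 0.605), and the difference between the sexes' effects was 0.75 ± 0.57 (adjusted p = 0.943).

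Cells that express angiotensin receptors in the medulla include pericytes and interstitial fibroblasts, and some of their markers were lower in males given cisplatin. Of all genes tested in males, 7.54% were called lower and 13.2% higher. The fibroblast markers summed to 94.9 to 399 CPM in male cisplatin and 488 to 608 CPM in male saline libraries, without overlap, and 5 of 8 tested were called lower, led by Pdgfra, a receptor on fibroblasts (-1.38 ± 0.32, adjusted p = 0.00604). The juxtaglomerular and mural markers summed to 137 to 195 CPM in male cisplatin and 188 to 214 CPM in male saline libraries, with 3 of 11 called lower and 1 higher. Of 11 endothelial markers, 5 were called lower and 1 higher. In females the fibroblast markers summed to 211 to 519 CPM under cisplatin and 257 to 648 CPM under saline. Of the 8 tested, 0 were called in females, where 0.0722% of all genes were called lower. Their median log2 fold change in females was -0.47. No gene passed the test of the difference between the sexes' effects. The part of these cells in the level of Agtr1a was not tested.

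Atp6ap2, the prorenin receptor gene, was the steadiest of the 5 and was slightly lower after cisplatin. In female cisplatin libraries it was measured at 142, 130, 137, 116 and 113 CPM, against 126 (lowest), 144 (median) and 152 (highest) in female saline libraries. Replicates 4 and 5 of female cisplatin lay below the female saline range and the others within it. In male cisplatin libraries the lowest, median and highest values were 115, 122 and 130 CPM. In male saline libraries they were 133, 141 and 150 CPM, so the male groups did not overlap. The share of all genes without overlap was not counted, and 20.7% of all genes were called in males. Group means were 128 ± 12.7 CPM in female cisplatin (SD, n = 5), 142 ± 8.85 in female saline (n = 7), 122 ± 5.97 in male cisplatin (n = 6) and 142 ± 6.58 in male saline libraries (n = 6).

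The log2 fold change of Atp6ap2 was -0.22 ± 0.07 in males (adjusted p = 0.0259 in edgeR) and -0.15 ± 0.07 in females (unadjusted p = 0.036, adjusted p = 0.305). The sexes' effects differed by 0.07 ± 0.10 (adjusted p = 0.96). Of 19 alternative analyses, 14 kept the call in males. The male call was lost without male cisplatin replicate 2 (adjusted p = 0.0624), male saline replicate 1 (0.0565) or male saline replicate 6 (0.053), each with a log2 fold change of -0.21 to -0.20, with the tubule marker score in the model (-0.19 ± 0.08, adjusted p = 0.0894) and without a filter on low counts (-0.24, adjusted p = 0.103). In the mean of both sexes' effects, a contrast added after the data had been seen, Atp6ap2 was -0.19 ± 0.05 (adjusted p = 0.00736) and was called in 30 of 30 alternative analyses. In that contrast 27.1% of all genes were called and 10.9% were called lower. Agtr1a was also called there (-0.85 ± 0.29, adjusted p = 0.0334) and in 21 of 30 alternative analyses. The Agtr1a call was lost without male cisplatin replicate 2 or 3 or male saline replicate 1 or 4. Leaving out female cisplatin replicate 4 or female saline replicate 3 or 4 also lost it (adjusted p of 0.0507 to 0.0653 in all these runs). With the tubule marker score it was lost too (-0.49 ± 0.29, adjusted p = 0.23). Ren1 was -0.71 ± 0.28 (adjusted p = 0.0599) and was called after leaving out male saline replicate 1 (0.047), male saline replicate 2 (0.0309) or female saline replicate 2 (0.04), and by DESeq2 (0.0367). Agt was 0.70 ± 0.32 (adjusted p = 0.1) and was called without male cisplatin replicate 6 (0.0286), and Ace was 0.38 ± 0.23 (adjusted p = 0.224).

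**Figure D3:**
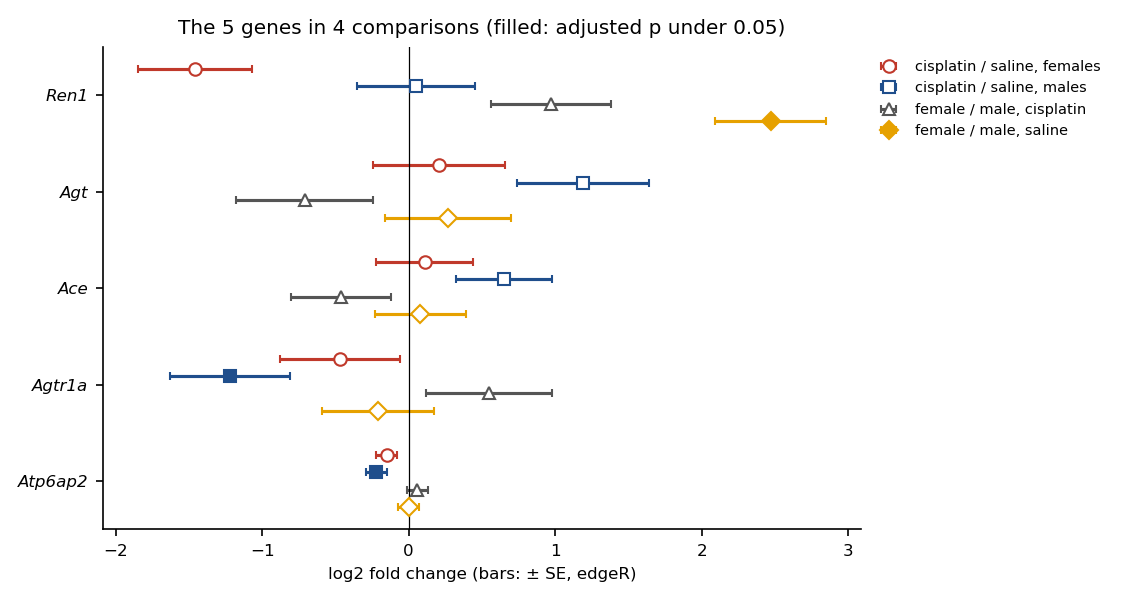
Log2 fold change of each gene with its SE in 4 comparisons, cisplatin over saline within each sex and female over male within each injection. Filled symbols passed an adjusted p of 0.05: Ren1 between the sexes under saline (2.47), and Agtr1a (-1.22) and Atp6ap2 (-0.22) in males after cisplatin.

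The V-ATPase subunits, the partners of the Atp6ap2 product in the proton pump, were tested gene by gene. Of 21 subunits and accessory proteins, in males 1 was called higher and 0 lower, where 20.7% of all genes were called, with a median log2 fold change of 0.01 beside 0.02 over all genes. The subunit called was Atp6v0a1 (0.37 ± 0.12, adjusted p = 0.0319), at 132 ± 21.0 CPM in male cisplatin and 102 ± 9.15 CPM in male saline libraries. Atp6ap1, the other accessory protein, averaged 250 ± 31.2 CPM in male cisplatin and 271 ± 18.9 CPM in male saline libraries and did not pass (-0.12 ± 0.08, adjusted p = 0.29). In females 0 of 21 were called in edgeR, where 0.272% of all genes were called.

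Of 21 further genes of the renin-angiotensin system, 14 passed the filter. In males 2 of the 14 were called higher and 2 lower, where 13.2% of all genes were called higher and 7.54% lower, and their median log2 fold change was 0.14. In females 0 were called in edgeR, with a median of 0.01, where 0.272% of all genes were called. Genes for the other receptors were low: Agtr2, the type 2 receptor, was below 0.2 CPM in every library, and Mrgprd and Agtr1b were likewise too low to test. Mas1, the receptor of a shortened angiotensin peptide, averaged 0.571 ± 0.181 CPM in female cisplatin, 0.703 ± 0.202 in female saline, 0.675 ± 0.247 in male cisplatin and 0.798 ± 0.281 in male saline libraries. Its log2 fold change was -0.30 ± 0.31 in females and -0.23 ± 0.29 in males, and neither passed. The mast cell proteases of the list (Ctsg, Cma1, Mcpt4 and Cpa3) did not pass the filter.

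The 2 genes that fell in males encode peptidases that break down angiotensins. Enpep, aminopeptidase A, which trims angiotensin II, was at 30.9 to 87.9 CPM in male cisplatin libraries (mean 50.1 ± 22.2) and 88.3 to 92.6 CPM in male saline libraries (90.1 ± 1.74), without overlap. Its log2 fold change was -0.84 ± 0.21 (adjusted p = 0.00922), and it was called in 19 of 19 alternative analyses. Mme, neprilysin, which cuts angiotensin I and other small peptides, was at 25.8 to 67.2 CPM in male cisplatin libraries (45.4 ± 14.1) and 49.8 to 115 CPM in male saline libraries (86.8 ± 21.8). Its ranges overlapped, and the log2 fold change was -0.93 ± 0.29 (adjusted p = 0.025). That call was lost without male cisplatin replicate 5 (-0.83, adjusted p = 0.0565) or male saline replicate 4 (-0.84, adjusted p = 0.0593), and with the tubule marker score in the model (-0.61, adjusted p = 0.162). In females Enpep was at 68.2 ± 22.9 CPM under cisplatin and 93.3 ± 12.2 CPM under saline (-0.45 ± 0.22, adjusted p = 0.329), and Mme at 62.9 ± 25.8 CPM under cisplatin and 78.7 ± 31.2 CPM under saline (-0.32 ± 0.29, adjusted p = 0.617).

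The genes that rose in males were Klk1 and Nln. Klk1 encodes tissue kallikrein, which releases kinins, and was at 30.1 to 538 CPM in male cisplatin libraries (199 ± 193) and 15.3 to 72.4 CPM in male saline libraries (56.2 ± 21.0). Mouse Klk1 has close copies in the Klk1b family, so its counts could be shared among them. The log2 fold change was 1.82 ± 0.56 (adjusted p = 0.0257), and the call was lost without male cisplatin replicate 3 (1.22, adjusted p = 0.111), male cisplatin replicate 2 (1.71, adjusted p = 0.0526) or male saline replicate 2 (1.62, adjusted p = 0.0528). It was also lost with the tubule marker score (1.69, adjusted p = 0.0862) and from the male libraries alone (1.81, adjusted p = 0.0554). Nln, neurolysin, a peptidase of angiotensin I and neurotensin, was at 32.2 ± 5.61 CPM in male cisplatin and 24.3 ± 1.68 CPM in male saline libraries (0.40 ± 0.12, adjusted p = 0.0233). It was lost without male cisplatin replicate 2 (0.34, adjusted p = 0.0649) or male saline replicate 6 (0.37, adjusted p = 0.0514), with the tubule marker score (0.28, adjusted p = 0.13) and without a filter on low counts (0.38, adjusted p = 0.0658). In females Klk1 was 0.87 ± 0.55 (adjusted p = 0.466) and Nln 0.17 ± 0.12 (adjusted p = 0.523). In the mean of both sexes 3 of the 14 were called higher and 2 lower, beside 16.2% and 10.9% of all genes. The third higher gene was Prcp, prolylcarboxypeptidase (0.24 ± 0.08, adjusted p = 0.0208). In the test of the difference between the sexes' effects, 0 of the 14 genes were called.

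**Figure D4:**
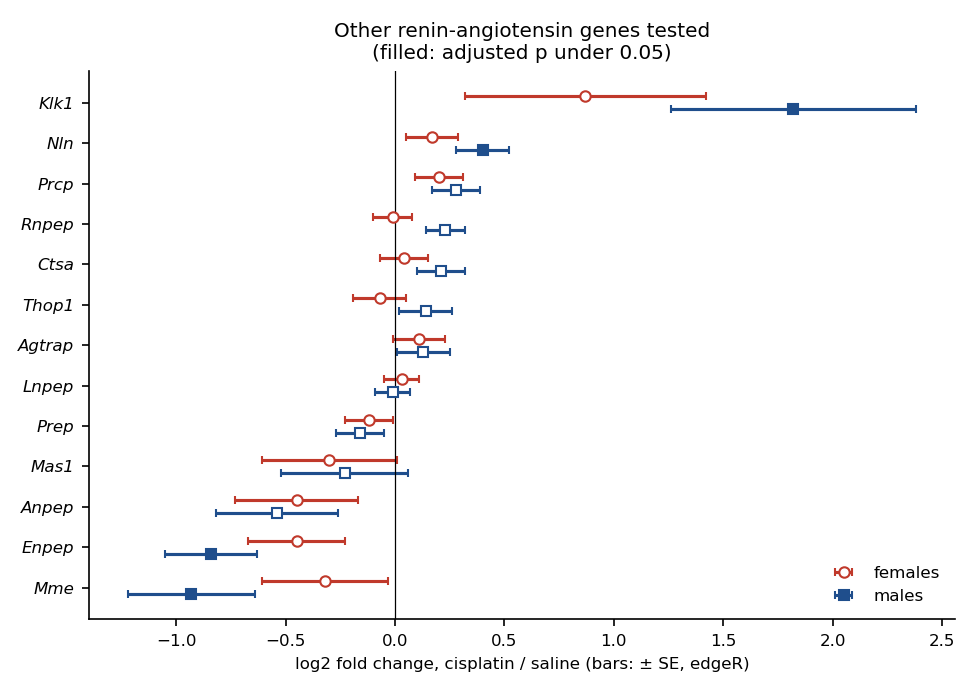
Log2 fold change (cisplatin over saline) with its SE for 13 of the 14 further renin-angiotensin genes that passed the filter, in females (circles) and males (squares). Filled symbols passed an adjusted p of 0.05: in males Klk1 (1.82) and Nln (0.40) above 0, and Enpep (-0.84) and Mme (-0.93) below it.

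Genes upstream and downstream of the system were read from lists written from general knowledge. Of 19 regulators of Ren1 and Agt transcription, 4 were called higher and 3 lower in males, beside 13.2% and 7.54% of all genes, and their median log2 fold change was -0.19. Stat3, the transcription factor of cytokine signalling, rose (1.11 ± 0.21, adjusted p = 0.00155), at 263 ± 101 CPM in male cisplatin and 122 ± 8.91 CPM in male saline libraries. Cebpd, an acute-phase transcription factor, rose too (1.66 ± 0.46, adjusted p = 0.014). Nr3c1, the glucocorticoid receptor, fell (-0.74 ± 0.14, adjusted p = 0.00172), as did the coactivator Ep300 (-0.46 ± 0.12, adjusted p = 0.0104). The oestrogen receptor Esr1 (-0.74 ± 0.30, adjusted p = 0.0744) did not pass in males and was not called between the sexes under saline. Alternatives were not run for these lists.

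In the mineralocorticoid pathway, which carries the signal of aldosterone downstream of angiotensin II, 1 of 12 genes was called higher and 1 lower in males, where 20.7% of all genes were called in either direction. Scnn1b, a subunit of the epithelial sodium channel, was at 168 ± 78.3 CPM in male cisplatin and 46.7 ± 7.17 CPM in male saline libraries (1.84 ± 0.33, adjusted p = 0.00116). Nr3c2, the mineralocorticoid receptor, was at 27.4 ± 5.17 CPM in male cisplatin and 35.4 ± 3.64 CPM in male saline libraries (-0.37 ± 0.13, adjusted p = 0.0449). Of 13 genes of receptor regulation and signalling, 2 were called lower and 0 higher, beside 7.54% and 13.2% of all genes: Rgs5 (-0.96 ± 0.22, adjusted p = 0.00565) and Rgs4 (-0.99 ± 0.31, adjusted p = 0.0255), regulators of G-protein signalling that pericytes express. In females 0 genes of these 3 lists were called in edgeR, where 0.272% of all genes were called.

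Across libraries, with each group's mean removed, the 5 genes varied together only in part. Over the 24 libraries Pearson's r of log2 CPM was 0.49 between Agt and Ace, 0.40 between Ren1 and Agt and 0.36 between Agtr1a and Atp6ap2. It was -0.48 between Ace and Atp6ap2 and -0.45 between Agt and Atp6ap2, and the remaining 5 pairs lay between -0.17 and 0.21. The libraries of a pair share depth and tissue composition, and these values are a description.

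By the same measure, the tested genes most like each member were ranked. For Ren1 they included R3hcc1l, Cyp4a14, Rasl12 and Rab6b (r of 0.692 to 0.677), and for Agt they were Kcnk1, Il13ra1, Plscr2, Nipal2 and Suclg2 (0.892 to 0.882). Those for Ace were Igfbp4, Ccl28, Plac8, Abcc3 and Hsd17b2 (0.863 to 0.823). Agtr1a varied most like Ltbp4 (0.883), followed by H2-Eb1, H2-Aa and H2-Ab1 (0.862 to 0.856). The genes most like Atp6ap2 were Yaf2, Cab39l, Rab9, Ginm1 and Apbb2 (0.811 to 0.755). The highest r for Ren1 was thus the lowest of the 5. All these r values were picked as the highest among the 18005 genes tested. They were not compared with what chance would give, and the ranking is a description.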

How the data were processed

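Per the labels, poly(A)-selected RNA of the inner medulla was sequenced. The authors deposited whole-number counts per Ensembl gene for 24 libraries (18084242 to 27279102 each). Per the submitters' processing notes, Trim Galore 0.6.7, Subread 2.0.1, featureCounts, DESeq2 1.28.1 and the build mm10 were used. The aligner, the annotation release and whether counting used strand: not given in the sources used here. Gene symbols were found for 52083 of 55416 identifiers. Of these identifiers, 2147 begin with ENSMUSG00002 and 0 of those are in GENCODE M21 (GRCm38), so the authors' annotation was another release, and coordinates and exon lengths are those of GENCODE M21.

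Counts were analysed in R 4.3.3 with edgeR 4.0.16: filterByExpr (minimum count 10; 18005 genes kept), TMM scaling, and a quasi-likelihood fit with a mean for each of the 4 groups over all 24 libraries. The common biological coefficient of variation was 0.251. Benjamini-Hochberg adjusted p under 0.05 over all 18005 genes counted as called. SE is that of the log2 fold change, derived from the test's F value. The fit was tested on simulated counts. DESeq2 1.42.0 was an alternative, beside other scaling, filter, model, and library sets. No library was a copy of another of its group (chi-square per gene at least 7.34 over 61 pairs).

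The 5 genes, the gene lists and the markers were chosen with earlier results of these data known. All 5 genes are named in each comparison, as are further renin-angiotensin genes that passed after cisplatin. Of each further list, up to 4 called genes with the smallest adjusted p are named, and of the genes most like each member the 5 with the highest r. Esr1, Mas1, Atp6ap1 and marker genes outside this rule were named after their values were seen. Some genes that these rules or lists hold are not reported here.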

Additional observations from a re-analysis of the deposited data

Results flagged for a closer look

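Libraries far from the rest of their group were looked for in 19 renin-angiotensin genes and 4 groups, 76 sets of values in all, with Dixon's test. It singled out 7, and chance alone would single out about 1 in 20 sets. Ren1 in female cisplatin had its lowest value in replicate 1 (0.906 CPM). Ace in female cisplatin had its highest value in replicate 4 (33.0 CPM), and Ace in male saline in replicate 3 (18.6 CPM). Enpep in female saline was lowest in replicate 2 (68.0 CPM), and Klk1 in male saline was lowest in replicate 2 (15.3 CPM). Nln in female saline was highest in replicate 5 (27.9 CPM), and Thop1 in female saline was highest in replicate 3 (37.2 CPM).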

How the results depend on the processing

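Between the sexes under saline, 1 member (Ren1) was called in every alternative run. Of the 5 members, 2 were called in males after cisplatin, but 1 without a filter on low counts, 1 with a replicate block, 0 with the tubule marker score, and 0 to 3 when 1 library was left out. In females DESeq2 called 1 against 0, and between the sexes under cisplatin leaving out 1 library gave 0 to 1. In the mean of both sexes, 1 was called with a replicate block, 1 with the tubule marker score and 1 to 3 with 1 library left out, against 2. The cause of these changes was not tested. Same-numbered libraries did not vary together (median r of -0.092 to 0.011 over 4 pairs of groups), so the numbers give no pairing. With the block, 16 genes were called in females against 49, and calls were lost for Agtr1a in males (adjusted p = 0.0568), Agtr1a in the mean of both sexes (-0.87, adjusted p = 0.0572) and Klk1 in males (1.58, adjusted p = 0.0857). Of the further renin-angiotensin genes, 4 were called in males, but 1 with the tubule marker score and 2 to 6 with 1 library left out (2 without male cisplatin replicate 2).

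Directions turned for small values that were not called. Ren1 in males was -0.03 without the 3 divergent libraries and -0.15 to 0.53 with 1 library left out. Agt in females was -0.06 without the 3 libraries. Ace in females was -0.23 with the replicate block, -0.14 as a difference of mean log2 CPM (the exact permutation test) and -0.57 to 0.26 with 1 library left out. Between the sexes under saline, Ace was -0.01 to 0.27 with 1 library left out, Agtr1a was 0.13 with the tubule score and 0.02 without the 3 libraries, and Atp6ap2 was 0.00 with the block, 0.02 with the tubule score and -0.02 to 0.02 with 1 library left out.

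Over all genes, 3731 were called in males, but 1950 with the tubule score and 2402 from the male libraries alone. In females 49 were called, but 85 without a filter, 27 with the tubule score, 32 without the 3 libraries, 20 from the female libraries alone, 233 with DESeq2 and 21 to 139 with 1 library left out. Between the sexes under cisplatin 28 were called, but 55 with the tubule score, 121 with DESeq2 and 12 to 120 with 1 library left out; under saline 34 were called, but 53, 54 and 21 to 41 in the same settings. In the mean of both sexes 4881 were called, but 3099 with the tubule score. Ren1 and Agtr1a rest on few counts, which limits what could be detected for them.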
